A study of Bos taurus with 22 samples.

Results

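Collagens are trimeric proteins of the extracellular matrix. Fibrillar collagens form the cable-like fibers that carry tension, basement membrane collagens form the sheet on which epithelium, vessels and muscle cells rest, and beaded filament collagens link cells to the matrix around them. In the gut wall they are made mainly by fibroblasts, smooth muscle cells and the cells of vessels, and little by enterocytes, the absorptive cells that make up most of a mucosal scraping.

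The collagen gene family was examined in the jejunal mucosa of 22 Holstein steers by RNA-seq. Members were the genes annotated as protein coding whose full name is COL, a number, A and a number, which gave 37 of 27570 genes in the count table. The steers were 10 to 12 months old. All of them received raw corn starch into the abomasum (3.94 g/kg BW daily) over 7 d. Along with starch, control steers (n = 5) received water and injections of the BSA vehicle, GLP-2 steers (n = 5) water and glucagon-like peptide 2 (100 μg/kg BW daily), casein steers (n = 6) casein (1.30 g/kg BW daily) and vehicle, and casein + GLP-2 steers (n = 6) both. GLP-2 is a gut hormone that stimulates growth of the mucosa. Each steer is a separate animal and gave 1 library of scraped mucosa, so the depth to which the wall was scraped can differ between steers, and no value used here records it.

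The deposited counts per steer ranged from 8809666 to 28447810 (median 12028560.5). Counts were expressed as CPM, counts scaled to library size after TMM normalization, for comparisons between steers, and as the deposited FPKM, which also divides by gene length, for comparisons between genes. Enterocyte markers were abundant in every library, with a summed level of the 15 genes between 2070 and 71500 CPM. The summed level of 15 smooth muscle markers, such as ACTA2, ACTG2, MYH11 and DES, ranged from 124 to 2040 CPM, and none of them was at 0 in any treatment. RNA of smooth muscle genes was thus measured in all 4 treatments, at a level that differed widely between steers.

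Of the 37 collagen genes, 14 had a median of at least 1 FPKM over the 22 steers and 13 had a median under 0.1 FPKM. The most abundant by this measure was COL3A1 (ENSBTAG00000021466; ARS-UCD1.2 chromosome 2, 7375289 to 7414912, minus strand), the single chain of collagen III in the fine reticular fibers of the gut wall. Its median level was 73.8 FPKM, with a range of 7.1 to 210 FPKM, and it ranked 1129 among 21848 protein-coding genes. COL3A1 alone made up 25.4 to 47.9% of the summed collagen FPKM of a steer. It was followed by the collagen I chains COL1A1 and COL1A2 at medians of 12.8 and 11.1 FPKM, by COL18A1 at 11.5 FPKM, and by COL4A1 and COL6A1 at 8.87 and 8.7 FPKM. The ranges of these 5 genes over the steers overlapped almost entirely. All 5 were measured in the same libraries, and their order within single steers was not tested. All 37 members together took 0.0138 to 0.336% of a steer's counts.

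**Figure D1:**
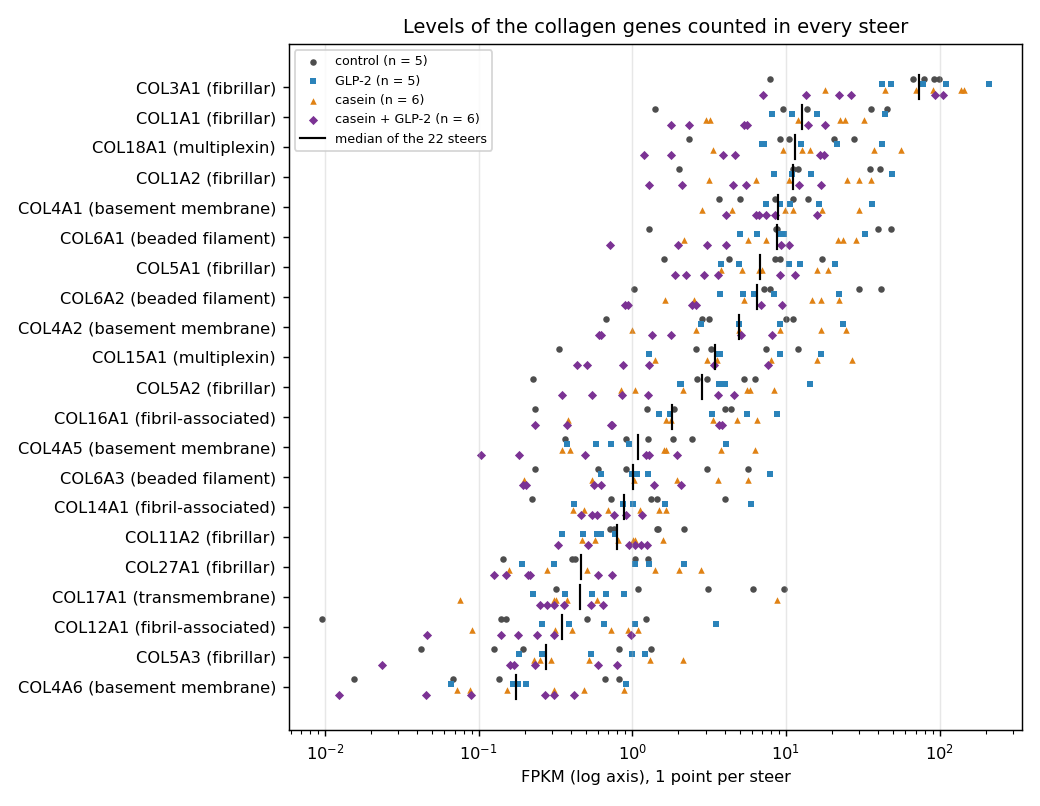
FPKM of the 21 collagen genes with a count in every steer, on a log axis, with 1 point per steer, colored by treatment, and a black line at the median of the 22 steers. COL3A1 stands above the other members, and within each gene the steers spread over at least 6.96-fold in CPM.

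By class, 8 of 10 fibrillar, 6 of 6 basement membrane, 3 of 5 beaded filament, 3 of 6 fibril-associated, 2 of 3 short-chain network, 2 of 2 multiplexin and 2 of 3 transmembrane collagens passed the filter on low counts in the model of the 4 treatments, which made 26 members tested. The highest member of each class was COL3A1 among fibrillar collagens, COL4A1 among basement membrane collagens, COL6A1 among beaded filaments, COL16A1 among fibril-associated collagens (1.82 FPKM) and COL8A2 among short-chain network collagens (0.0699 FPKM). The highest multiplexin was COL18A1, the basement membrane collagen from which endostatin is cut, and the highest transmembrane collagen was COL17A1 (0.456 FPKM). The 11 members that did not pass were COL2A1, COL6A5, COL6A6, COL9A1, COL9A3, COL10A1, COL11A1, COL20A1, COL23A1, COL26A1 and COL28A1. Collagens II, IX, X and XI are best known from cartilage. The highest count of any of the 11 in a steer was 104, for COL23A1 in casein replicate 5. COL9A1 had no count in 21 of 22 steers and at most 2 counts, which is below the 3 counts that a reading of 0 allows in a library.

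Some members lie next to each other in the genome. COL4A1 and COL4A2, which share the triple helix found in nearly all basement membranes, start back to back on chromosome 12 (84863917 to 84995777 on the minus strand and 85040120 to 85153241 on the plus strand), with 44342 bases between the gene models. COL4A4 and COL4A3 on chromosome 2 and COL4A6 and COL4A5 on chromosome X have the same arrangement, with 91173 and 147844 bases between them. COL6A1 and COL6A2 lie on chromosome 1 on 1 strand, with 119958 bases between them, and COL18A1 lies 372353 bases before COL6A1.

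Levels of most collagens rose and fell together between steers. The median Pearson's r over the 325 pairs of tested members, on log2 CPM over 22 steers, was 0.712. In 11 of 26 tested members the highest CPM was that of GLP-2 replicate 1, and in 7 that of casein replicate 5. The lowest CPM was in casein + GLP-2 replicate 3 for 8 members and in control replicate 2 for 7. Chains of 1 molecule differed in how closely they varied together, and 3 of 8 chain pairs lay above a percentile of 90 among all member pairs. For COL6A1 and COL6A2 r was 0.98 (Spearman's rho = 0.981), and for COL1A1 and COL1A2 both r and rho were 0.968, each with a permutation p of 1e-05, the smallest that 100000 resamples can give, and 1.33e-05 after adjustment over the 8 pairs computed. COL4A1 and COL4A2 gave r = 0.891 (rho = 0.914), COL5A1 and COL5A2 r = 0.899 (rho = 0.892), COL6A2 and COL6A3 r = 0.946 (rho = 0.932) and COL4A5 and COL4A6 r = 0.793 (rho = 0.818), each with the same permutation p and adjusted p. For COL4A3 and COL4A4, r was 0.711 and rho 0.669 (permutation p = 0.00021 and 0.00087, adjusted 0.00024 and 0.000994), and r fell to 0.505 without the 2 steers farthest from the median. COL8A1 and COL8A2, which form 1 network around vessels and in the eye, did not vary together (r = 0.0109, rho = -0.00178, permutation p = 0.962 and 0.994, adjusted p = 0.962 and 0.994). In the other 7 pairs r without the 2 farthest steers was between 0.505 and 0.981, and r within the 11 BSA steers and within the 11 GLP-2 steers was at least 0.633.

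GLP-2 was compared with BSA over both infusions, 11 steers each, which asks what the hormone changed in the mucosa. Among the 21 collagens tested, 1 was downregulated and 0 were upregulated at an adjusted p of at most 0.05 (edgeR quasi-likelihood test, Benjamini-Hochberg adjustment over 13928 genes), against 13.5% of all genes called. The downregulated collagen was COL17A1 (ENSBTAG00000002430; chromosome 26, 24591192 to 24638064, minus strand), the transmembrane collagen by which hemidesmosomes fix epithelial cells to the basement membrane. The other collagens had no detectable change. Their estimates lay mostly below 0, since 17 of the 21 log2 fold changes were negative with a median of -0.48, while the median over all genes was 0.008. Marker lists of the cells of the wall had medians below 0 too, at -1.02 for 15 smooth muscle genes (1 called), -0.92 for 10 fibroblast genes (2 called) and -0.86 for 10 endothelial genes (0 called), -0.66 for 2 glial genes (0 called) and -0.25 for 4 pericyte genes (0 called, 2 of them positive). The B cell follicle markers had a median of -3.93 with 10 of 10 called lower, while the 15 enterocyte genes had a median of 1.06 (2 called). With the smooth muscle score as a covariate edgeR called 0 collagens (2.43% of genes) and 8 of the 21 estimates were negative. With the follicle score as a covariate 5 were negative, and 0 collagens and 0% of genes were called. The follicle markers were themselves lower with GLP-2, so that fit cannot separate the injection from the follicle score.

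COL17A1 was at 17.4, 1.76, 53.1, 6.14 and 33.4 CPM in control replicates 1 to 5. In the GLP-2 treatment it was at 1.28, 4.85, 2.1, 3.11 and 3.74 CPM in replicates 1, 3, 4, 5 and 6. In casein steers the lowest, median and highest values were 0.415, 1.95 and 48.8 CPM, and in casein + GLP-2 steers 1.33, 1.9 and 3.55 CPM. High values were thus found in control replicates 1, 3 and 5 and casein replicate 3, all of them BSA steers. The other BSA steers lay within the 1.28 to 4.85 CPM of the 11 GLP-2 injected steers, except control replicate 4 (6.14 CPM) and casein replicate 1 (0.415 CPM). The 11 GLP-2 steers averaged 2.58 ± 1.16 CPM and the 11 BSA steers 15.5 ± 20.1 CPM (SD). The log2 fold change was -2.59 (standard error 0.667, edgeR adjusted p = 0.0236), and in fits without 1 steer it lay between -2.74 and -2.19 and was called in each. The call was lost with limma on log2(FPKM + 1) (-0.84, adjusted p = 0.105), with the smooth muscle score as an edgeR covariate (-2.04, adjusted p = 0.0827) and with the replicate block as an edgeR term (-1.95, adjusted p = 0.0556). In these fits 15%, 2.43% and 4.95% of all genes were called.

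The same 4 BSA steers had the highest levels of B cell follicle markers. The follicle score, the mean log2 CPM of 12 markers such as MS4A1, CD79A, CR2 and CXCL13, was 5.92 to 6.9 in them and at most 3.49 in the other 18. All 12 markers passed the filter and none was at 0 in any treatment, and their summed level was 25.3 to 1740 CPM in control, 37.8 to 2300 in casein, 22.2 to 52.9 in GLP-2 and 21.9 to 78.9 in casein + GLP-2 steers. COL17A1 had 348 to 825 counts in the 4 steers and 5 to 117 in the 18. Because the score leaves a gap between the 4 and the rest, no correlation over all steers is given. Within the 18 steers r between COL17A1 and the score was -0.279 (rho = -0.292, permutation p = 0.261 and 0.24, adjusted over 15074 genes 0.394 and 0.385), and -0.493 without the 2 steers farthest from the median score. Without the 4 steers, a choice made after seeing the data, the log2 fold change of COL17A1 between GLP-2 and BSA was 0.06 (edgeR adjusted p = 0.954). With the follicle score as a covariate it was 0.67 (adjusted p = 1). No GLP-2 injected steer had a score above 2.2, so this fit cannot separate the injection from the score.

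**Figure D2:**
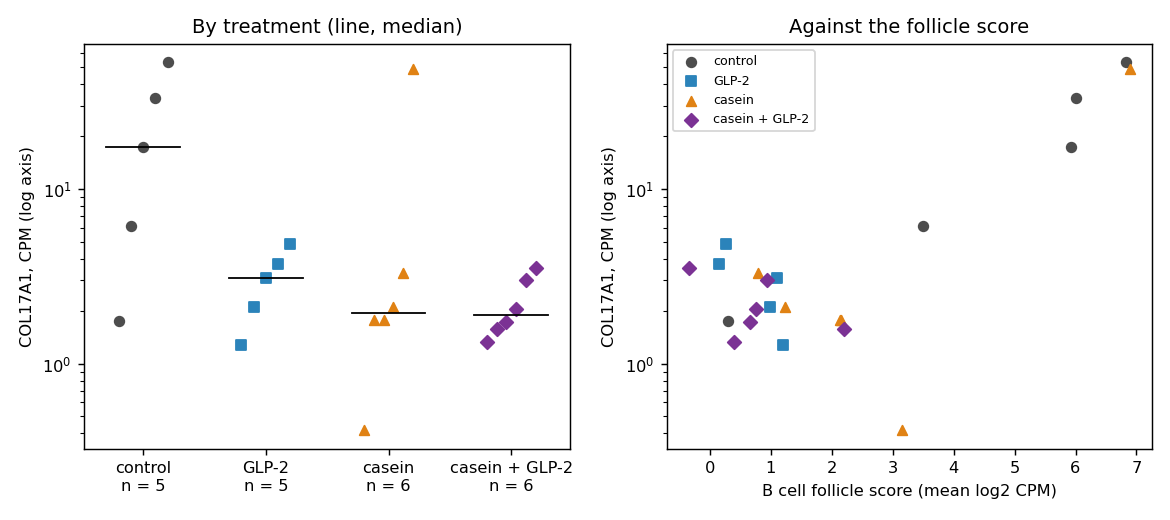
COL17A1 in CPM on a log axis, 1 point per steer, by treatment with a line at the median (left) and against the B cell follicle score, the mean log2 CPM of 12 markers (right). The 4 steers at 17.4 CPM or more, 3 control and 1 casein, are those with a follicle score of at least 5.92, and the other 18 steers lie at or below 6.14 CPM.

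COL8A1, a short-chain collagen of vessel walls, was too low to pass the filter between GLP-2 and BSA. Its counts were high in the same 4 steers, though not only in them. It had 127 counts in casein replicate 3, 78 in control replicate 3, 23 in control replicate 1 and 16 in control replicate 5. Outside them casein replicate 5 had 31 counts (1.29 CPM), above control replicates 5 and 1 in CPM (1.24 and 1.15). The other 17 steers had at most 4 counts. The 11 GLP-2 steers held 8 counts of COL8A1 in all, and no fold change is given. When no filter was applied, COL8A1 and COL17A1 were the 2 collagens called by edgeR between GLP-2 and BSA, with 6.93% of genes called.

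The next collagens by p were COL11A2, COL6A2 and COL6A1, with log2 fold changes of -0.58 (standard error 0.286), -1.13 (0.57) and -1.08 (0.561) and edgeR adjusted p of 0.154, 0.16 and 0.173. COL11A2, a minor fibrillar chain, was at 3.96, 11.7, 7.85, 4.17 and 7.76 CPM in control replicates 1 to 5 and at 1.86 to 4.2 CPM in the 5 GLP-2 steers, which overlapped by 2 control steers. Casein and casein + GLP-2 steers had 2.54 to 8.76 and 1.69 to 6.99 CPM of COL11A2. The beaded filament chains COL6A1 and COL6A2 averaged 26.5 ± 27.7 and 29 ± 28 CPM in GLP-2 steers against 54.9 ± 48.2 and 62.2 ± 58.2 CPM in BSA steers (SD, n = 11). Spread between steers was thus near or above the mean in both groups. Without GLP-2 replicate 1, COL6A1 was also called, with a log2 fold change of -1.59 (edgeR adjusted p = 0.0498) and 14.8% of genes called.

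The abundant fibrillar and basement membrane collagens were not called. COL3A1 averaged 380 ± 334 CPM in GLP-2 steers and 421 ± 237 CPM in BSA steers (SD, n = 11, log2 fold change -0.17, standard error 0.477, edgeR adjusted p = 0.821). COL1A1 and COL1A2 had log2 fold changes of -0.51 and -0.63 (standard errors 0.528 and 0.526), COL15A1 and COL18A1, both multiplexins, -0.79 and -0.57 (0.628 and 0.534), and COL4A5 -0.8 (0.538). COL4A1 and the fibril-associated COL12A1 had positive values of 0.13 (0.378) and 0.46 (0.631). With standard errors of 0.378 to 0.631 on the log2 scale, changes of the size estimated for these 8 genes were not detectable with 11 steers a group.

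**Figure D3:**
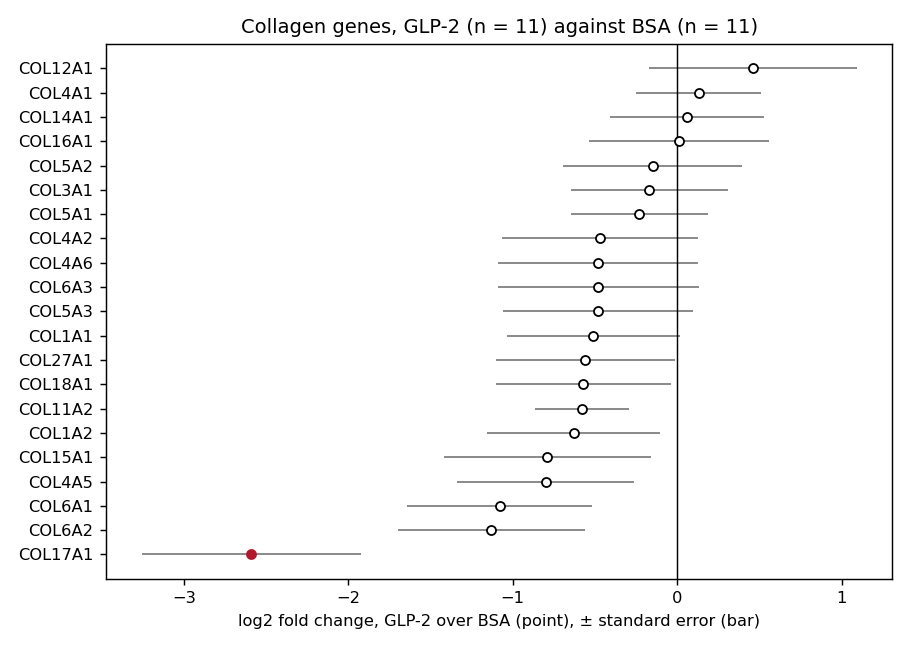
Log2 fold change of the 21 tested collagens between GLP-2 and BSA steers (n = 11 each), with bars of 1 standard error, from the edgeR fit to all genes. COL17A1 at -2.59 (filled red) is the called gene, and the other 20 lie between -1.13 and 0.46.

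Casein was compared with water over both injections (12 and 10 steers). Of 22 collagens tested, 0 were called by edgeR, as were 0% of 14096 genes, and 1 passed an unadjusted p of 0.05 (3.36% of genes). The DESeq2 Wald test and limma on log2(FPKM + 1) called 0 collagens as well, and 0.0355% and 0% of genes. The 1 was COL14A1, a fibril-associated collagen, at 4.8 ± 2.36 CPM with casein and 9.83 ± 10.2 CPM with water (SD, n = 12 and 10, log2 fold change -1.02, standard error 0.43, adjusted p = 0.994). The highest COL14A1 value with water was 33.7 CPM and the highest with casein 9.14 CPM, while the medians were 6.47 and 4.06 CPM. The COL17A1 log2 fold change was -1.09 (standard error 0.781, edgeR adjusted p = 0.994).

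Across the 4 treatments, the lowest median CPM was that of casein + GLP-2 steers in 18 of the 26 tested collagens, of control steers in 5 (COL4A3, COL4A4, COL4A6, COL5A3 and COL12A1), of GLP-2 steers in 3 (COL4A5, COL8A1 and COL11A2) and of casein steers in 0. The median of COL3A1 was 435 CPM in control, 431 in GLP-2, 437 in casein and 129 in casein + GLP-2 steers. All groups overlapped, with ranges of 43 to 527, 230 to 1170, 98.3 to 816 and 38.2 to 595 CPM. The spread of COL3A1 within a treatment was thus wider than the differences between the medians of control, GLP-2 and casein steers. COL4A1 had medians of 53.7, 66.4, 65.7 and 43.1 CPM in the same order, with ranges of 22.7 to 84.9, 45.3 to 231, 17.9 to 194 and 25.6 to 103 CPM.

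COL6A1 was at 27.3, 3.97, 146, 27.2 and 121 CPM in control replicates 1 to 5 and at 104, 19.7, 28.9, 31 and 15.6 CPM in GLP-2 replicates 1, 3, 4, 5 and 6. Its lowest, median and highest values were 6.86, 45.2 and 92 CPM in casein steers and 2.2, 10.8 and 33.2 CPM in casein + GLP-2 steers, and all 4 groups overlapped. COL18A1 was at 11.8 to 137 CPM in control (median 54), 35.1 to 219 in GLP-2 (65), 17.2 to 293 in casein (68.7) and 6.03 to 92.5 in casein + GLP-2 steers (21.2). COL16A1, a fibril-associated collagen, was at 0.882 to 16.2 (7.15), 5.65 to 33.9 (12.8), 1.48 to 25.7 (9.7) and 0.886 to 15 CPM (2.72). In each of these genes the casein + GLP-2 steers had the lowest median but reached into the range of the others. COL8A2 medians were 0.706, 0.331, 0.728 and 0.283 CPM. The smooth muscle score was also lowest at the median in casein + GLP-2 steers, with medians of 3.3, 3.88, 4 and 2.63 in the same order.

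No collagen passed the threshold in these contrasts. Between casein + GLP-2 and casein, 0 of 26 collagens were called (0% of 15086 genes). An unadjusted p of 0.05 was passed by 7, and by 24.1% of all genes. All 26 estimates were negative, with a median of -1.33 against -0.026 over all genes. With the smooth muscle score as a covariate 13 of the 26 were negative. Among the 7 were COL27A1, a fibrillar chain (log2 fold change -1.81, standard error 0.715, edgeR adjusted p = 0.152), COL15A1 (-2.05, 0.848, 0.161) and COL17A1 (-2.14, 0.887, 0.161). Without casein replicate 3 the COL17A1 value turned to 0.24. Between GLP-2 and control, 0 of 26 were called (0% of genes), and 17 estimates were positive (median 0.39). An unadjusted p of 0.05 was passed by 4, and by 13.9% of all genes. Without GLP-2 replicate 1, 7 were positive and 19 negative. COL17A1 had a log2 fold change of -2.88 there (standard error 0.984, edgeR adjusted p = 0.229), and it was the 1 collagen that the DESeq2 Wald test called in this contrast, along with 1.92% of all genes. The edgeR test also called 1 collagen in this contrast without casein replicate 3 (COL17A1, with 0.788% of genes called) and without control replicate 2 (COL8A1, with 2.79% of genes called).

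The estimates for casein + GLP-2 against GLP-2 were negative in 24 of 26 collagens (median -1.25), with 0 called by edgeR (0% of genes). At an unadjusted p up to 0.05 there were 3, and 2.64% of all genes. With the smooth muscle score as a covariate 18 were negative. Among the 3 were COL14A1 (log2 fold change -1.44, standard error 0.624) and COL12A1 (-1.9, 0.862), both with an edgeR adjusted p of 0.995. Casein against control gave 0 of 26 called (0% of genes) and 1 at an unadjusted p up to 0.05 (5.66% of all genes). The median was 0.26, with 18 positive estimates, or 12 without control replicate 2. For the casein × GLP-2 interaction edgeR called 0 of 26 (0% of genes), and 4 passed an unadjusted p of 0.05 (4.28% of all genes). Here 23 estimates were negative (median -1.5), or 15 with the smooth muscle score as a covariate. The interaction estimate of COL27A1 was -2.46 (standard error 1.04, edgeR adjusted p = 0.996). In these 3 contrasts the DESeq2 Wald test and limma on log2(FPKM + 1) called 0 collagens too, and DESeq2 called 0.0663%, 0.0331% and 0.0133% of genes for casein against control, casein + GLP-2 against GLP-2 and the interaction. Between casein + GLP-2 and casein both called 0 collagens, while 5.91% of all genes were called by DESeq2 and 0% by limma. These contrasts share treatments, so they are not independent of each other.

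Collagens were next set beside smooth muscle genes. The smooth muscle score, the mean log2 CPM of the 15 markers, ran from 2.22 (casein + GLP-2 replicate 3) to 6.46 (control replicate 5) without a wide gap. In an edgeR fit with the treatment and the score, 20 of 26 collagens rose with the score and 0 fell, against 25.8% of 15071 genes called in either direction and 12.9% called with a positive slope. All 26 slopes were positive. Because the score and the collagens come from the same library, more cells of a type and more RNA per cell cannot be told apart.

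COL6A3, a beaded filament chain, followed the score most closely. Its slope was 1.27 (standard error 0.112, edgeR adjusted p = 4.15e-07), that is a log2 CPM difference of 1.27 per unit of score, and its r with the score was 0.932 (rho = 0.922, permutation p = 1e-05 each, adjusted over 15071 genes 0.000307 and 0.000414). COL6A3 was at 5.76, 2.21, 28.4, 8.73 and 52.1 CPM in control replicates 1 to 5, and at 76.1 CPM in GLP-2 replicate 1 but 5.84 to 12.3 CPM in the other GLP-2 steers. In casein steers the lowest, median and highest values were 1.9, 14.1 and 56 CPM, and in casein + GLP-2 steers 1.86, 5.52 and 20.2 CPM. The steers with the 5 highest smooth muscle scores (casein replicates 1 and 5, control replicates 3 and 5 and GLP-2 replicate 1) were also the 5 highest in COL6A3.

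COL6A2 and COL6A1 came next in r, at 0.907 and 0.906 (rho = 0.895 and 0.913, permutation p = 1e-05 each, adjusted 0.000307 for r), with slopes of 1.11 and 1.1 (standard errors 0.132 and 0.136). All 3 beaded filament chains stayed between 0.88 and 0.921 without the 2 steers farthest from the median score. Within BSA steers their r was 0.883 to 0.937, and within GLP-2 steers 0.911 to 0.95. By permutation p of r, 20 of 26 collagens passed the adjusted threshold, as did 37.4% of all genes. COL4A2, COL15A1, COL1A2, COL18A1 and COL1A1 had r between 0.867 and 0.899, and COL3A1 and COL4A1 had 0.793 and 0.788. Differences between these values of r were not tested.

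The slopes of the other called collagens ranged from 0.68 (COL4A1, standard error 0.097) to 1.22 (COL15A1, 0.159). Fibrillar slopes were 0.98 for COL1A2, 1 for COL1A1, 0.81 for COL3A1, 0.77 for COL5A1, 0.96 for COL5A2, 1.12 for COL5A3 and 0.97 for COL27A1. Among basement membrane chains they were 1.17 for COL4A2, 1.07 for COL4A6 and 0.88 for COL4A5. The fibril-associated COL12A1, COL14A1 and COL16A1 had 1.17, 0.72 and 1.03, COL18A1 had 1.02 and COL13A1, a transmembrane collagen, 0.94. The edgeR adjusted p of these genes was at most 0.0386, the value for COL13A1.

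The 6 collagens that were not called were COL4A3, COL4A4, COL8A1, COL8A2, COL11A2 and COL17A1. COL11A2, COL4A3 and COL17A1 had the lowest r with the score, at 0.151, 0.157 and 0.248 (rho = 0.0638, 0.194 and 0.0853, permutation p between 0.267 and 0.777, adjusted between 0.378 and 0.842). Their slopes were 0.04, 0.71 and 0.35 (standard errors 0.124, 0.413 and 0.347). COL4A3, a basement membrane chain best known from kidney and lung, was nearly absent, with 0 to 1.18 CPM in control, 0.29 to 4.31 in GLP-2, 0 to 4.99 in casein and 0.0703 to 1.38 in casein + GLP-2 steers. For COL4A4, COL8A1 and COL8A2 the slopes were 0.96, 0.93 and 0.64 (standard errors 0.378, 0.505 and 0.291, edgeR adjusted p = 0.0642, 0.179 and 0.107).

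**Figure D4:**
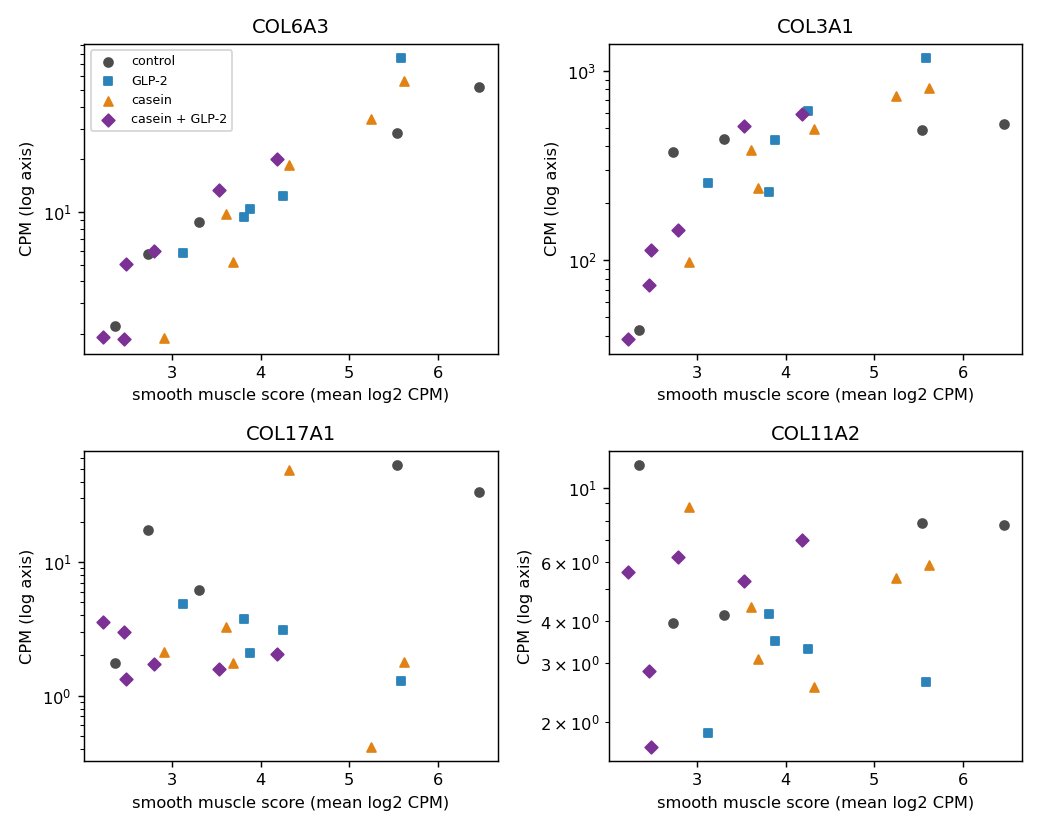
CPM on a log axis against the smooth muscle score (mean log2 CPM of 15 markers) for COL6A3, COL3A1, COL17A1 and COL11A2, 1 point per steer, colored by treatment. COL6A3 and COL3A1 rise with the score (r = 0.932 and 0.793), COL17A1 is high in 4 steers at several scores, and COL11A2 shows no trend (r = 0.151).

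Smooth muscle was not the marker set that most collagens resembled most. Besides the follicle score, left out for a gap of 33.5% of its range, 6 scores were compared (smooth muscle, fibroblast, endothelial cell, pericyte, enteric glia and neuron, and enterocyte), with gaps of up to 29.5%, that of the glial score. The highest r was with the endothelial score in 9 collagens, with the fibroblast score in 7, with the pericyte score in 7, with the smooth muscle score in 2 (COL4A6 and COL8A2) and with the glial score in 1 (COL11A2). COL8A1 and COL17A1, which were high in the 4 steers of high follicle score, counted under the fibroblast score. The glial score rested on the 3 of its 9 listed markers that passed the filter. The highest r of COL11A2 (0.248), COL17A1 (0.396) and COL4A3 (0.484, pericyte) did not pass the threshold (permutation p adjusted to 0.378, 0.12 and 0.1). For these genes the tally shows no detected relation. The endothelial markers gave r = 0.976 for COL15A1 and 0.952 for COL18A1 (rho = 0.965 and 0.967), the multiplexins of vessel basement membranes. The fibroblast markers gave 0.969 for COL6A1, 0.966 for COL1A2 and 0.918 for COL1A1 (rho = 0.914, 0.918 and 0.875). The pericyte markers gave 0.956 for COL4A2 and 0.904 for COL4A1 (rho = 0.975 and 0.899). Each of these 7 had a permutation p of 1e-05, adjusted over all genes to at most 0.000431, and r of at least 0.835 without the 2 farthest steers. With the enterocyte score 25 of 26 r were negative, down to -0.705 for COL6A1 (rho = -0.747, permutation p = 0.00025 and 0.00013, adjusted 0.00103 and 0.000631), and that of COL4A3 was 0.289 (rho = 0.125, permutation p = 0.191 and 0.576, adjusted 0.264 and 0.659). These are descriptions over 22 steers that share libraries, and the scores themselves vary together.

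**Figure D5:**
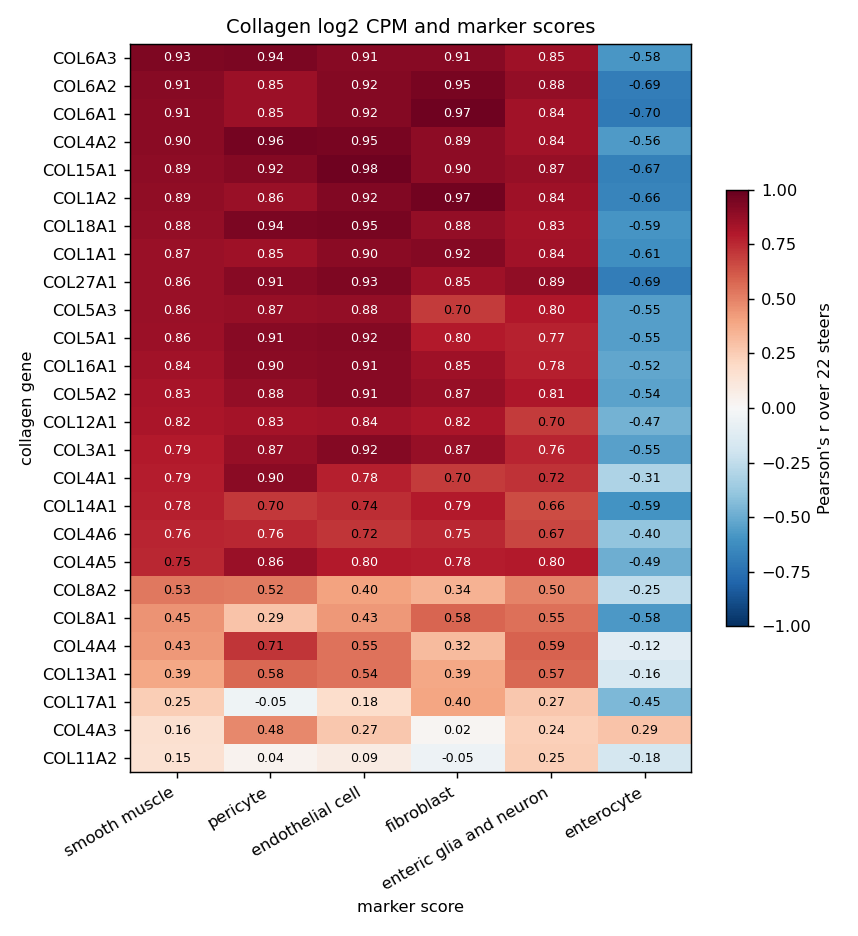
Pearson's r over 22 steers between the log2 CPM of each of 26 collagens (rows, ordered by r with smooth muscle) and 6 marker scores (columns), red for positive and blue for negative. The 19 collagens at the top have r of at least 0.75 with smooth muscle while the lowest rows, COL17A1, COL4A3 and COL11A2, have r of at most 0.248 with it.

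The smooth muscle and fibroblast scores were correlated at r = 0.902 over the steers, and both were entered into 1 edgeR fit to set them side by side. With the fibroblast score in the fit, 0 of 26 collagens were called for the smooth muscle score (0.153% of 15061 genes). The slopes were positive in 23, with a median of 0.43. For the fibroblast score 8 of 26 were called (5.03% of genes), a test added after seeing the data. These 8 were COL1A2, COL6A1, COL6A2, COL1A1, COL12A1, COL8A1, COL15A1 and COL3A1. COL1A2 had a slope of 1.08 on the fibroblast score (standard error 0.145, edgeR adjusted p = 0.00111) and 0.02 on the smooth muscle score (0.154, 0.959). COL6A3 had 0.52 (0.196, 0.119) and 0.81 (0.205, 0.0781), so the chain closest to smooth muscle was called for neither. The fits differ in what each score adds to the other and say nothing on which cells made the RNA.

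Genes that act on collagen were counted over 6 lists with 82 genes. Between GLP-2 and BSA 4 of 67 tested genes were called by edgeR, 3 up and 1 down, a share below the 13.5% of all genes. MIA3, which helps bulky procollagens leave the endoplasmic reticulum, was upregulated from 93.1 ± 30.4 to 139 ± 23 CPM (SD, n = 11 each, log2 fold change 0.59, standard error 0.16, edgeR adjusted p = 0.0259). ITGA2, a collagen-binding integrin chain, rose from 3.45 ± 0.835 to 6.15 ± 2.24 CPM (0.84, 0.219, 0.0239). Fibromodulin (FMOD), a proteoglycan on collagen fibrils, was downregulated from 7.52 ± 8.2 to 1.48 ± 1.79 CPM (-2.39, 0.69, 0.0308). None of the 4 was called with the follicle score as a covariate or without the 4 steers named above. With this covariate 0% of all 13928 genes were called, so the loss of these calls is not specific to the 4 genes. The fit without the 4 steers had fewer BSA steers, so its lost calls cannot be read as a change in these genes either. In these 2 fits FMOD was at -0.27 and -1.34, MIA3 at 0.25 and 0.4 and ITGA2 at 0.88 and 0.86. The ITGA2 estimate thus stayed near its 0.84, while those of FMOD and MIA3 were smaller in size.

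By list, 1 of 15 genes of chain modification, folding and secretion (MIA3), 1 of 8 collagen receptors (ITGA2) and 1 of 13 fibril partners (FMOD) were called, and 0 of 10 for propeptide cleavage and crosslinking and 0 of 9 for breakdown. The median log2 fold changes of the lists were between -0.68 (fibril partners) and 0.06 (receptors). On the smooth muscle score, with which 12.9% of all genes rose and 25.8% were called in either direction, the counts were larger. The fibril partners rose in 13 of 14 tested genes, the crosslinking genes in 7 of 11 and the breakdown genes in 6 of 10, with none falling. Of the basement membrane partners 7 of 12 rose and 1 fell, of the modification genes 7 of 15 rose and 2 fell, and of the receptors 3 of 8 rose.

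Library properties were set beside the smooth muscle score, on which these slopes rest. Its r was -0.132 with the log10 of the library total (rho = -0.152, permutation p = 0.558 and 0.498), -0.222 with an index of how long genes deviate from short ones (rho = -0.298, p = 0.319 and 0.177) and -0.462 with the number of genes with a count (rho = -0.356, p = 0.0299 and 0.104). Over these relations and that with body weight (r = 0.0981, rho = 0.188, permutation p = 0.664 and 0.397), 4 were computed, and after adjustment over them the p of r was at least 0.12 and that of rho at least 0.354. Without the 2 farthest steers r was -0.482 for the number of genes with a count. With a correction for gene length 20 of 26 collagens were called for the smooth muscle score, and the part of the other properties was not tested.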

How the data were processed

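Poly-A RNA-seq libraries of 22 jejunal mucosa samples were analysed, 1 per steer (control 5, GLP-2 5, casein 6, casein + GLP-2 6), and a further GLP-2 steer was not analysed here. The authors deposited read counts per gene and FPKM values. The submitters' processing notes name HISAT2 2.0.5, featureCounts 1.5.0-p3, StringTie 1.3.3b, DESeq2 1.20 and the build ARS-UCD1.2. Library totals of 8809666 to 28447810 counts bound the precision for rare genes, and the floor of 3 counts covers counting error only.

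Counts were fitted with edgeR 4.0.16 in R 4.3.3 (TMM, filterByExpr with a minimum count of 10, quasi-likelihood test, Benjamini-Hochberg adjustment over all genes tested, threshold 0.05). The 2 factors, injection and infusion, were each fitted on pooled groups, and the other contrasts and the slope on the smooth muscle score in a model with the treatment. Scores are means of log2 CPM (prior count 2), with the score's genes left out of the table. Correlations used 100000 permutations. The fits were tested on simulated data with 200 changed genes. The alternatives were DESeq2 1.42.0, limma 3.58.1 on FPKM, other scalings and filters, covariates, a replicate block and leaving out each steer.

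The members and gene lists were chosen with earlier results of these data known. Values by steer or treatment are given for the highest member of each class, members past the threshold, and the 3 highest and 3 lowest in r with smooth muscle. Of the pathway lists, those called between GLP-2 and BSA are named, except 1 that is not reported here. COL8A1, COL14A1, COL27A1 and the other members with values were named after these were seen. TIMP1, LAIR1, GP6 and LAMA2 were not found by symbol. COL4A3BP, a lipid transfer protein with a similar name, was no member.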

Additional observations from a re-analysis of the deposited data

Results flagged for a closer look

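Within single treatments, 104 groups of steers were tested for a steer far from the others, and 5 were found, where chance gives about 1 in 20. In control replicate 2, COL3A1 was low at 5.43 log2 CPM (487 counts) with the next control steer at 8.54, and COL5A2 was low at 0.15 (11 counts) with the next at 3.54. COL4A4 was high in this steer at -1.3 log2 CPM, but on 3 counts. COL6A3 was high in GLP-2 replicate 1 at 6.25 log2 CPM (954 counts), with the next GLP-2 steer at 3.64, and this steer also had the highest smooth muscle score of its treatment, 5.58. COL8A1 was high in GLP-2 replicate 3 at -2.46 log2 CPM, which is 1 count. Their causes were not tested.

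A pair of genes with collagen names was outside the family because of their annotated type. COL7A1, the gene of anchoring fibrils, is annotated as a pseudogene in this table, and had up to 203 counts, with more than 3 in 22 of 22 steers and a median of 0.428 FPKM. COL9A2, annotated as a long noncoding RNA, had up to 14 counts and more than 3 in 7 steers.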

How the results depend on the processing

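Between GLP-2 and BSA, the count of called collagens was 1. It became 2 without a filter on low counts, 0 with at least 10 counts in every steer (which removes COL17A1), 0 with limma on log2(FPKM + 1) and on log2(FPKM + 0.1), 0 with the smooth muscle or the follicle score as a covariate and 0 without the 4 steers of high follicle score (chosen after seeing the data). Leaving out 1 steer gave 1 to 2, with 2 without GLP-2 replicate 1. GLP-2 against control gave 0 and, with the DESeq2 Wald test, 1 (1.92% of genes), and leaving out 1 steer gave 0 to 1. On the smooth muscle score 20 became 0 with the fibroblast score in the fit. Of the pathway genes 4 became 10 with DESeq2, 2 with the smooth muscle covariate, 0 with the follicle covariate, 0 without the 4 steers and 1 without casein replicate 5 and control replicate 5 (both chosen after seeing the data). With the follicle covariate 0% of all genes were called between GLP-2 and BSA, so the 0 there is not specific to collagens or pathway genes. Leaving out 1 steer gave 2 to 13 pathway genes, 13 without control replicate 2, where 25% of all genes were called. The cause was not tested.

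The replicate block, the block number in the sample titles, gave 0 collagens and 2 pathway genes between GLP-2 and BSA (4.95% of genes called). With gene length correction added it gave 1 collagen (COL17A1) and 1 pathway gene (8.54%). On the smooth muscle score these 2 fits gave 19 and 18 collagens. Over 30 pairs of steers of 1 block the deviations from the group means correlated at -0.464 to 0.387 (mean 0.0331), and the block was kept as an alternative only. This value over all genes cannot show whether the block matters for a single gene. The paper states that treatments were assigned at random within blocks. With the block in the fit, COL17A1 was at -1.95 (edgeR adjusted p = 0.0556) against -2.59 without it. Between GLP-2 and BSA 689 genes were called with the block and 1881 without.

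Directions turned for these log2 values. With the follicle covariate, COL17A1 was at 0.67, COL6A2 0.42, COL6A1 0.41, COL1A2 0.73, COL1A1 0.76 and COL3A1 0.49 between GLP-2 and BSA, and COL17A1 at 0.49 between GLP-2 and control and 0.59 between casein + GLP-2 and casein. The follicle score itself differed between the injections, so these values cannot show the direction of a GLP-2 effect. Without the 4 steers, which were also the 4 highest in COL17A1, its value was 0.06. With the smooth muscle covariate COL1A1 was at 0.15 and COL3A1 at 0.09. With gene length correction COL4A1 was at -0.07, and with the block added COL4A1 was at -0.07 and COL12A1 at -0.10. With the fibroblast score the slopes of COL3A1, COL8A1 and COL17A1 were -0.05, -0.96 and -0.76. Leaving out 1 steer gave -0.30 to 0.84 for COL12A1, -0.52 to 0.00 for COL3A1, -0.23 to 0.48 for COL4A1, 0.00 to 0.16 for the slope of COL11A2 and -2.41 to 0.24 for COL17A1 between casein + GLP-2 and casein. Depth limits the collagens with few counts, such as COL4A3, COL8A1 and COL8A2.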

Other observations

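The balance of chains within a molecule was compared as a ratio of FPKM. COL1A1 over COL1A2 was between 0.504 and 1.44 (median 1.07) in the 22 steers, although the chains themselves varied widely. COL6A1 over COL6A2 was between 0.8 and 2.24 (median 1.34). COL4A1 over COL4A2 varied more, from 1.03 in casein replicate 1 to 12.2 in casein + GLP-2 replicate 3 (median 1.91). The medians of this ratio were 1.77 in control, 1.85 in GLP-2, 1.47 in casein and 4.25 in casein + GLP-2 steers, and the groups overlapped. In casein + GLP-2 replicate 3 the smooth muscle score was the lowest of all steers, 2.22. COL3A1 over COL1A1 was between 2.17 and 13.7 (median 5.42). These ratios were chosen after seeing the data and were not tested between treatments.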
